A study of Mus musculus with 10 samples.

Results

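WNT ligands, their Frizzled receptors and the R-spondins were followed in single mouse embryos that lacked *Rreb1*, a zinc-finger transcription factor. Members were taken by gene symbol alone. They comprised the WNT ligands other than *Wnt3* and *Wnt3a*, all Frizzleds, the 4 R-spondins, and 10 further pathway genes (*Lrp5*, *Lrp6*, *Axin2*, *Lef1*, *Tcf7*, *Sfrp1*, *Sfrp2*, *Dkk3*, *Nkd1* and *Sp5*). This gave 41 of the 20974 genes in the table, made up of 17 WNT ligands, 10 Frizzled receptors, 2 co-receptors, 4 R-spondins, 3 secreted modulators and 5 nuclear effectors or target genes.

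The study compared 5 *Rreb1*-/- with 5 *Rreb1*+/+ embryos at embryonic day (E) 7.5 by RNA-sequencing, each embryo being a library of its own. All embryos came from heterozygous intercrosses, and the labels give CD1, an outbred stock, as their strain. The mutant allele was made with CRISPR-Cas9 and lacks most of the coding sequence of exon 6, and the study describes lines with a larger and a smaller deletion that were analysed together. The parietal endoderm had been taken off for genotyping, so a library holds the rest of a whole embryo, embryonic and extraembryonic cells mixed, and fewer cells of a type cannot be told apart from less RNA per cell. By the study's account, mutants were smaller than their littermates from E7.5 and lagged behind them, as judged by morphology and somite number. Genotype and developmental stage therefore cannot be told apart in these embryos. Embryos are numbered 2 to 6 in each genotype.

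WNT proteins are secreted, lipid-modified ligands that bind Frizzled receptors together with the co-receptors *Lrp5* or *Lrp6*. This stabilizes β-catenin, which joins the DNA-binding factors *Tcf7* and *Lef1* and their relatives to activate target genes, among them the feedback inhibitor *Axin2*. R-spondins raise the amount of receptor at the cell surface by binding Lgr receptors and the ligases *Rnf43* and *Znrf3*, which otherwise remove Frizzleds. In the gastrulating mouse embryo, WNT signalling in the posterior epiblast is needed to form the primitive streak and mesoderm.

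Depth ranged between 31467767 and 35446574 reads in genes per *Rreb1*-/- embryo, and between 33317560 and 35786876 per *Rreb1*+/+ embryo. The gene-level count of *Rreb1* was 4657, 5715, 3988, 5052 and 5638 in *Rreb1*-/- embryos 2 to 6, against 2534, 2741, 2365, 2924 and 2657 in *Rreb1*+/+ embryos. It was higher in every mutant, but a count over the whole gene includes exons outside the deletion and does not check the deleted part. The embryos also fell into replicate sets. On the first principal component, with 37.0% of the variance, *Rreb1*-/- embryos 2 to 4 lay between -47.5 and -43.7 and *Rreb1*-/- embryos 5 and 6 between 27.8 and 33.9, while *Rreb1*+/+ embryos 2 to 4 lay between -6.77 and -3.64 and *Rreb1*+/+ embryos 5 and 6 between 44.5 and 48.2. Each genotype comparison is therefore given over all 10 embryos and within each set. *Rreb1*-/- embryo 2 and all *Rreb1*+/+ embryos had *Xist*, whereas *Rreb1*-/- embryos 3 to 6 had Y-linked transcripts. No member lies on a sex chromosome, but genotype and sex cannot be told apart in replicates 5 and 6. In replicates 2 to 4 only *Rreb1*-/- embryo 2 shares the sex of the wild types.

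Levels of different genes were compared per kilobase (kb) of exon, as normalized counts (reads divided by a size factor for each library). Averaged over the 10 embryos, *Fzd7* (745 normalized counts per kb) and *Tcf7* (728) were the most abundant members. *Fzd7* had 771 counts per kb in *Rreb1*-/- and 718 in *Rreb1*+/+ embryos, and *Tcf7* 672 in *Rreb1*-/- and 785 in *Rreb1*+/+ embryos, so that their order by mean differed between the genotypes, which was not tested. Over all embryos they were followed by *Sfrp1* at 513, *Lrp5* at 480.5 and *Axin2* at 463 counts per kb. By mean, *Wnt7b* was the first member ligand in *Rreb1*-/- embryos (312 counts per kb, with 254 of *Wnt8a*) and *Wnt8a* was first in *Rreb1*+/+ embryos (347, with 245 of *Wnt7b*), which was not tested. These means mix the replicate sets. *Wnt7b* led in *Rreb1*-/- embryos 2 to 4 (362 and 118 of *Wnt8a*), and their wild types had 270 and 276. In *Rreb1*-/- embryos 5 and 6 *Wnt8a* led, with 30.1% of the summed level of member ligands against 15.6% for *Wnt7b*. *Wnt6* at 180.1 and *Wnt5a* at 168 counts per kb came next over all embryos. *Rspo3* was the main R-spondin at 346 counts per kb, with *Rspo1* next at 47.2. At the other end were *Wnt1*, *Wnt8b*, *Wnt10a*, *Wnt10b*, *Wnt7a* and *Rspo2*, each with a mean normalized count under 15 in both genotypes, and these 6 were not tested. The other 35 members passed this filter.

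**Figure D1:**
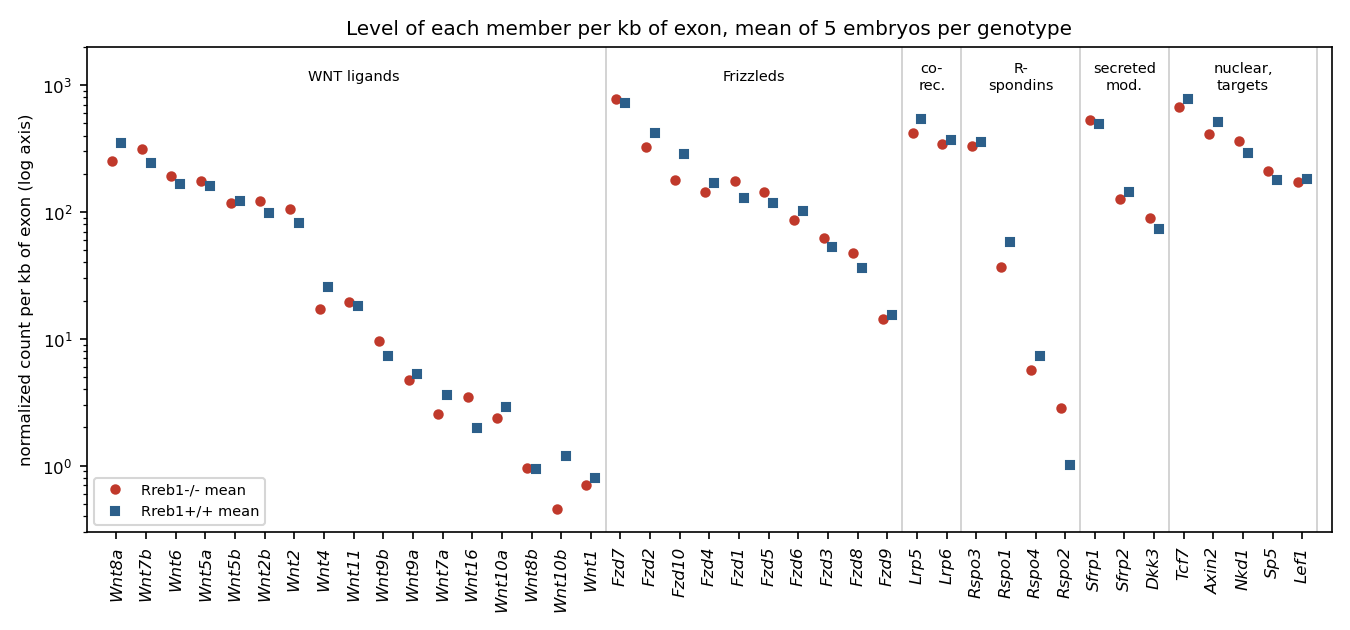
Normalized count per kb of exon (log axis) of each of the 41 members, as the mean of 5 *Rreb1*-/- embryos (circles) and of 5 *Rreb1*+/+ embryos (squares), grouped by role. *Fzd7*, *Wnt8a*, *Rspo3*, *Sfrp1*, *Tcf7* and *Lrp5* lead their groups by the mean over all embryos, and *Rspo2* shows a wide gap between genotypes at a low level.

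Whether loss of *Rreb1* changed the level of any member was asked first over all 10 embryos. No member passed an adjusted p of 0.05 in limma in either direction, where 3.11% of all 15603 genes tested were higher and 1.15% lower in *Rreb1*-/- embryos. Without adjustment *Fzd3* was higher at p under 0.05 and 5 members were lower (*Lrp5*, *Rspo1*, *Axin2*, *Fzd10* and *Tcf7*). Of all genes tested, 1520 were higher and 1281 lower before adjustment. After adjustment edgeR called 0 members and DESeq2 called 0. With Y-linked expression as a covariate the number called was also 0. That fit called 83 of all genes higher and 24 lower, against 486 and 179 in the main fit. Y-linked expression nearly follows genotype in these embryos, so that fit can hardly separate the genotype difference from sex. With the replicate set as a block limma called 2 members lower, *Fzd10* (adjusted p = 0.0475) and *Rspo1* (adjusted p = 0.0398). With that block 753 of all 15603 genes were higher and 381 lower. The median log2 fold change was -0.06 over the 35 members and -0.02 over all genes. None of the 35 had values that separated all mutants from all wild types, against 4.24% of all genes tested that did so on the higher side and 2.46% on the lower side. These p-values measure the spread between these embryos. Within replicates 2 to 4 (3 embryos per genotype), 3 members fell in *Rreb1*-/- embryos, namely *Fzd10*, *Wnt8a* and *Wnt4*, and 0 rose (4 were higher at p under 0.05 before adjustment). Over all genes 2.52% fell and 3.16% rose in that set. In replicates 5 and 6 (2 embryos per genotype) 0 members rose or fell in limma, while *Dkk3* was higher and *Fzd6* lower at p under 0.05 before adjustment, and neither edgeR (0) nor DESeq2 (0) made a call. The share of all genes called there was 1.06% higher and 0.179% lower.

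**Figure D2:**
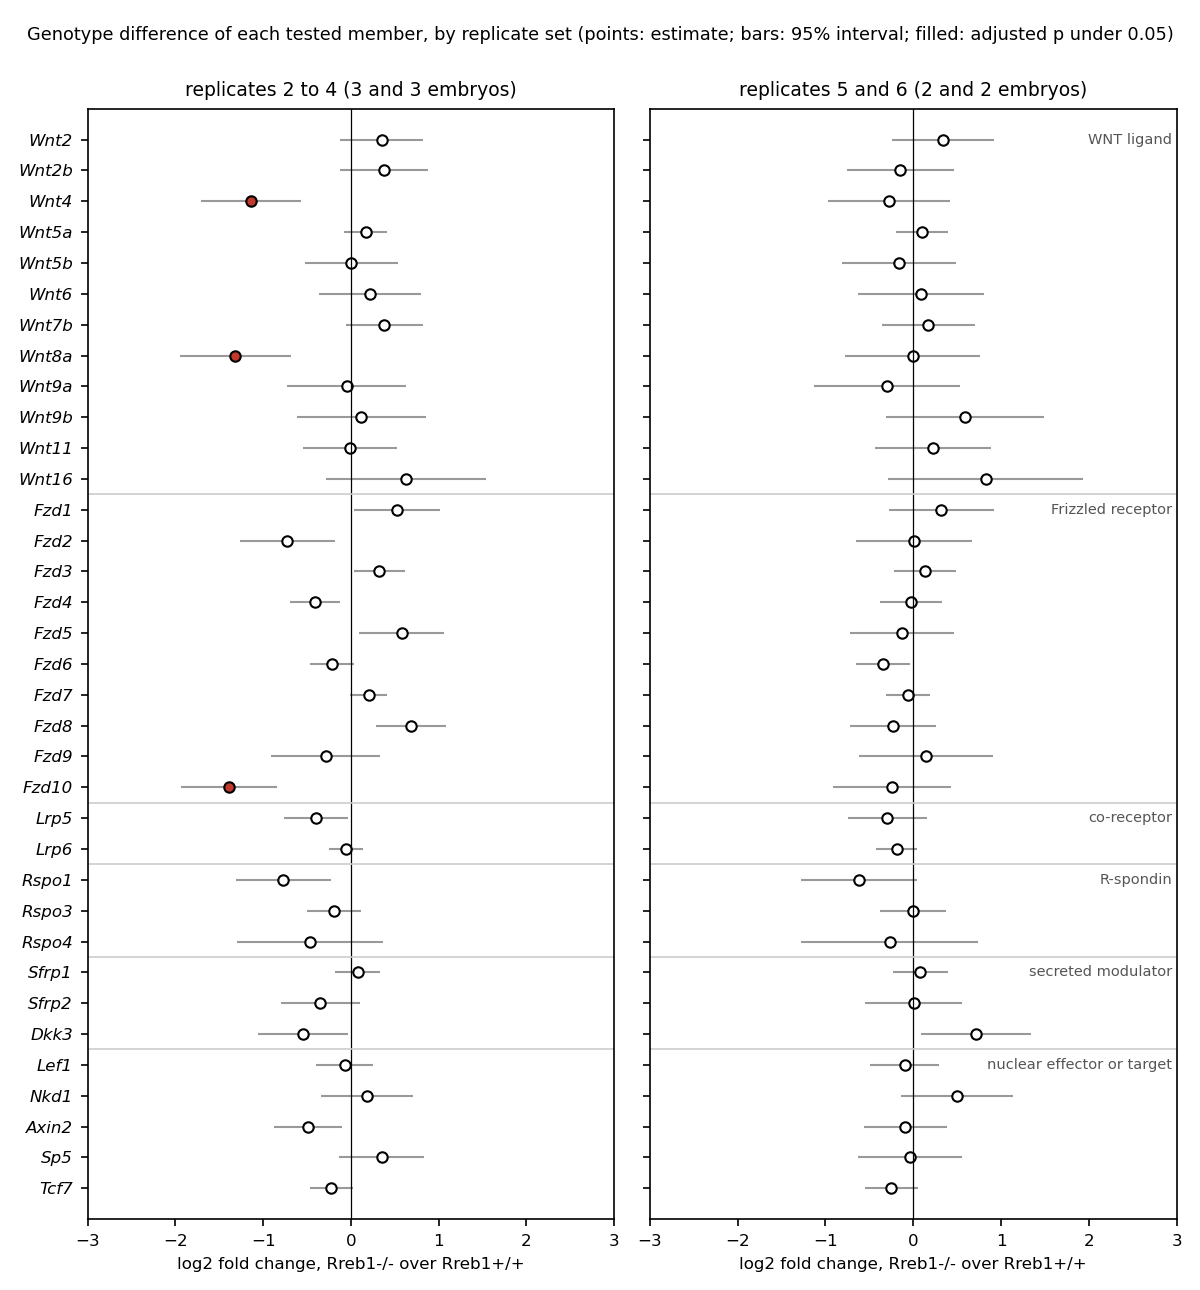
Log2 fold change, *Rreb1*-/- over *Rreb1*+/+, of the 35 tested members within replicates 2 to 4 (left panel) and within replicates 5 and 6 (right panel), with 95% intervals from the limma fit. Filled points mark an adjusted p under 0.05 over all genes, and only *Wnt4*, *Wnt8a* and *Fzd10* have them, all below 0 and all in replicates 2 to 4.

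Among the ligands, *Wnt8a*, which in mouse is transcribed in the posterior epiblast and primitive streak, fell in the mutants of replicates 2 to 4. Its normalized count was 116, 205 and 301 in *Rreb1*-/- embryos 2 to 4, against 529, 459 and 458 in *Rreb1*+/+ embryos 2 to 4. In embryos 5 and 6 it was 927 and 671 in *Rreb1*-/- and 784 and 801 in *Rreb1*+/+ embryos. The mutants lay below every wild type in the first set, and the genotypes overlapped in the second, where both had more *Wnt8a*. The log2 fold change was -1.32 ± 0.28 (SE) in replicates 2 to 4 (adjusted p = 0.0239) and -0.01 ± 0.35 in replicates 5 and 6 (adjusted p = 0.999). Ligand shares were taken per kb of exon over the 17 member ligands only, without *Wnt3* and *Wnt3a*. *Wnt8a* made up 10.1% of that sum in *Rreb1*-/- embryos 2 to 4 and 23.3% in *Rreb1*+/+ embryos 2 to 4. Its share was 30.1% in *Rreb1*-/- and 31.3% in *Rreb1*+/+ embryos of replicates 5 and 6. *Wnt7b*, a ligand expressed in the chorion and extraembryonic ectoderm, took the largest share in the mutants of replicates 2 to 4, at 29.3%, against 22.8% in their wild types. *Wnt7b* itself was not called in that set (log2 fold change 0.38 ± 0.20, adjusted p = 0.321).

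*Wnt4*, best known for its part in kidney tubule and ovary development, showed the same pattern at a lower level. *Rreb1*-/- embryos 2 to 4 had 23.3, 33.3 and 40.4 normalized counts, against 53.7, 80.3 and 81.2 in *Rreb1*+/+ embryos 2 to 4. Embryos 5 and 6 had 149.6 and 114 counts in *Rreb1*-/- and 149 and 169 in *Rreb1*+/+. Only the first set was without overlap, with a log2 fold change of -1.14 ± 0.25 (adjusted p = 0.0286), while replicates 5 and 6 gave -0.28 ± 0.31 (adjusted p = 0.837). Both ligand calls depended on single embryos. *Wnt4* lost its call without *Rreb1*-/- replicate 2 (adjusted p = 0.0857), *Rreb1*+/+ replicate 3 (0.118) or *Rreb1*+/+ replicate 4 (0.108). *Wnt8a* lost its call without *Rreb1*+/+ replicate 2 (adjusted p = 0.0584), 3 (0.0757) or 4 (0.0623).

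*Wnt2*, a ligand needed for placental and lung development, had 189, 288, 187, 294 and 233 normalized counts in *Rreb1*-/- embryos 2 to 6, against 138, 209.8, 168, 206 and 208 in *Rreb1*+/+ embryos. The genotypes overlapped in replicates 2 to 4, and the log2 fold change over all embryos was 0.35 ± 0.18 (adjusted p = 0.336). *Wnt16*, which in zebrafish acts in the specification of haematopoietic stem cells, had 14.8, 12.5, 5.3, 20.4 and 22.9 counts in *Rreb1*-/- embryos and 6.7, 6.0, 5.7, 8.6 and 16.0 in *Rreb1*+/+ embryos. It was near the filter, and it was not called in either set (log2 fold change over all embryos 0.71 ± 0.41, adjusted p = 0.397). Of the other 8 tested ligands (*Wnt2b*, *Wnt5a*, *Wnt5b*, *Wnt6*, *Wnt7b*, *Wnt9a*, *Wnt9b* and *Wnt11*), the log2 fold changes over all embryos lay between -0.15 (*Wnt9a*) and 0.31 (*Wnt9b*), and none was called in either set. The ligand median was 0.15 over all embryos, 8 of 12 being above 0. The untested ligands were low, and the highest value of *Wnt1*, *Wnt8b*, *Wnt10a*, *Wnt10b* and *Wnt7a* in any embryo was 17.0 normalized counts (*Wnt7a* in *Rreb1*+/+ embryo 6). *Wnt1*, a midbrain and neural crest ligand, was at 0 in all 6 embryos of replicates 2 to 4.

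**Figure D3:**
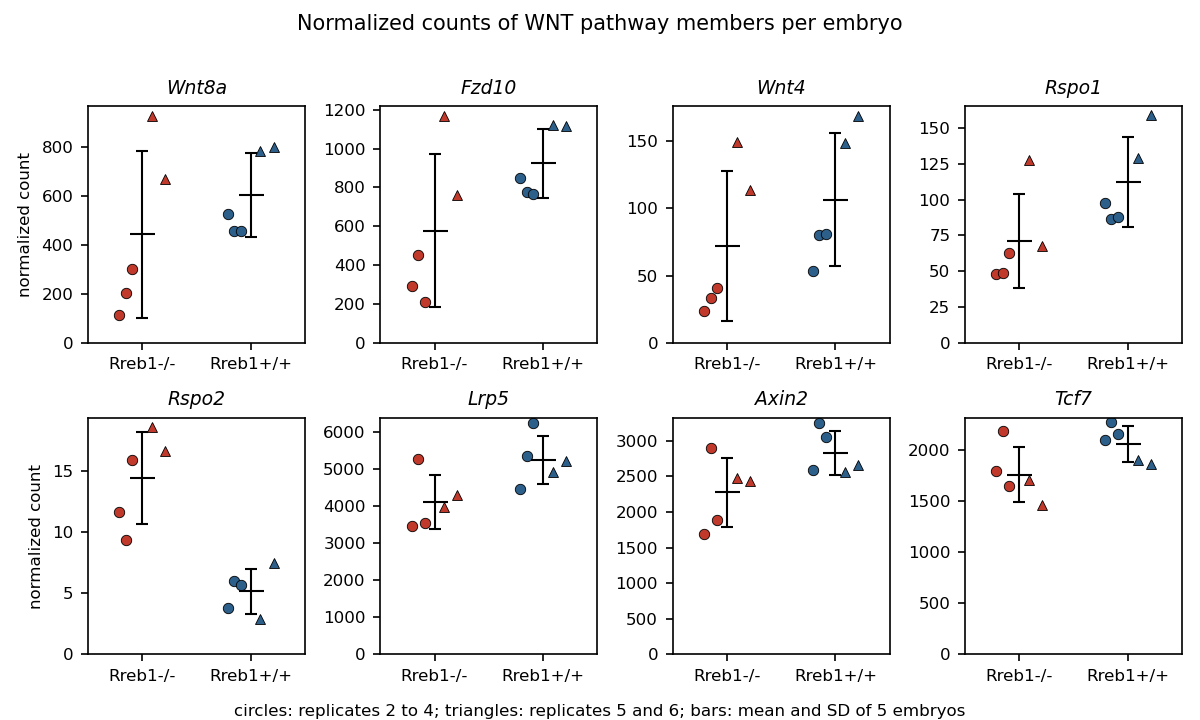
Normalized count per embryo of 8 members in *Rreb1*-/- (left) and *Rreb1*+/+ (right) embryos, with replicates 2 to 4 as circles, replicates 5 and 6 as triangles, and the mean and SD of 5 embryos as bars. The circles of *Wnt8a*, *Fzd10*, *Wnt4* and *Rspo1* lie lower in the mutants than in the wild types, *Rspo2* alone of these 8 separates all mutants from all wild types, and *Lrp5*, *Axin2* and *Tcf7* overlap.

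Frizzled estimates were of both signs within replicates 2 to 4, and 1 of the 10 receptors passed the test. *Fzd10*, of the *Fzd4*, *Fzd9* and *Fzd10* subfamily, had 293, 454 and 211 normalized counts in *Rreb1*-/- embryos 2 to 4, against 846, 775 and 768 in *Rreb1*+/+ embryos 2 to 4. In embryos 5 and 6 the counts were 1170.0 and 763 in *Rreb1*-/- and 1119.7 and 1114 in *Rreb1*+/+. The mutants of the first set were thus all below the wild types, and *Rreb1*-/- embryo 5 was above every wild type. The log2 fold change was -1.39 ± 0.25 in replicates 2 to 4 (adjusted p = 0.00945) and -0.24 ± 0.30 in replicates 5 and 6 (adjusted p = 0.858). *Fzd10* alone of the 3 called members kept its call in replicates 2 to 4 when any single embryo was left out and under every other alternative run, with log2 fold changes of -1.67 to -1.12. Over all 10 embryos it was called only with the replicate set as a block (log2 fold change -0.93, adjusted p = 0.0475, against 0.247 without the block).

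The number of members lower in replicates 2 to 4 changed with the fit. It was 6 with the replicate number as a block, which added *Axin2* (adjusted p = 0.0492), *Fzd2* (0.028) and *Fzd4* (0.0489), and *Fzd8* was then higher (0.0394). It was 3 by edgeR and 5 by DESeq2, which added *Fzd2* and *Fzd4* and called *Fzd8* higher. Without *Rreb1*-/- replicate 3 it was 6 (*Axin2*, *Fzd2*, *Fzd10*, *Lrp5*, *Wnt4* and *Wnt8a*), and without *Rreb1*+/+ replicate 3 or 4 it was 1 (*Fzd10*). *Fzd8* was called higher without *Rreb1*+/+ replicate 4 (adjusted p = 0.0262), and *Dkk3* lower without *Rreb1*-/- replicate 2 (0.0133). Of all 15603 genes, 393 were lower in replicates 2 to 4 in the main fit, 422 with the replicate block, 377 by edgeR and 590 by DESeq2. In that set 6 of the 35 members lay wholly below and 4 wholly above their wild types, where 11.0% of all genes did so on the lower side and 11.0% on the higher side.

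*Fzd1*, *Fzd2* and *Fzd7* form a subfamily of closely related receptors. *Fzd7*, the most abundant, had 3346, 3834, 3924, 3367 and 3002 normalized counts in *Rreb1*-/- embryos 2 to 6, against 2939.7, 3211, 3495, 3347 and 3280.1 in *Rreb1*+/+ embryos, and the 95% interval of its log2 fold change was -0.08 to 0.27. *Fzd1* had 768, 1012, 726, 612 and 553 counts in *Rreb1*-/- embryos and 389.5, 663, 733, 442 and 492 in *Rreb1*+/+ embryos, with overlap (log2 fold change 0.44 ± 0.20, adjusted p = 0.28). *Fzd2* lay on the other side of 0 in replicates 2 to 4, with 588, 1161 and 894 counts in *Rreb1*-/- and 1083, 1539 and 1653 in *Rreb1*+/+ embryos. In embryos 5 and 6 its counts were 1675 and 1668 in *Rreb1*-/- and 1406 and 1974 in *Rreb1*+/+ embryos, which overlapped, and its log2 fold change was -0.72 ± 0.24 in replicates 2 to 4 (adjusted p = 0.129). The subfamily thus held estimates of both signs within 1 set of embryos.

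*Fzd4*, the receptor of Norrin in retinal vessels, had 930.4, 882 and 698 normalized counts in *Rreb1*-/- embryos 2 to 4, against 1189.7, 1157 and 978 in *Rreb1*+/+ embryos 2 to 4, and 1113 and 1181 in *Rreb1*-/- against 1250.3 and 1087 in *Rreb1*+/+ embryos 5 and 6. The first set was without overlap (log2 fold change -0.41 ± 0.13, adjusted p = 0.105) and the second overlapped. *Fzd3* and *Fzd6*, which act together in planar cell polarity, differed in sign. *Fzd3* had 744, 741, 869.7, 838 and 824 counts in *Rreb1*-/- embryos 2 to 6, against 701, 676, 517, 786 and 730.1 in *Rreb1*+/+ embryos (log2 fold change 0.25 ± 0.11, adjusted p = 0.272). *Fzd6* had 476, 429, 528, 302 and 333 counts in *Rreb1*-/- and 542, 565, 553, 423 and 384 in *Rreb1*+/+ embryos (log2 fold change -0.27 ± 0.17, adjusted p = 0.458). Both were without overlap within each set, *Fzd3* on the higher side and *Fzd6* on the lower, yet overlapped over all 10 embryos because *Fzd6* was lower in replicates 5 and 6 than in replicates 2 to 4 in both genotypes, and because *Rreb1*+/+ embryo 5 had more *Fzd3* than *Rreb1*-/- embryos 2 and 3. In replicates 5 and 6, with 2 embryos per genotype, 9 of the 35 tested members lay wholly above and 9 wholly below their wild types. A separation in that set therefore carries little weight.

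*Fzd5* and *Fzd8*, another closely related pair, were chosen here after their values were seen. *Fzd8* had 329.5, 379 and 389 normalized counts in *Rreb1*-/- embryos 2 to 4, against 175, 229 and 290.3 in *Rreb1*+/+ embryos 2 to 4, and 164 and 161 in *Rreb1*-/- against 188 and 193 in *Rreb1*+/+ embryos 5 and 6. Mutants were above wild types in the first set and below them in the second. The log2 fold changes were 0.69 ± 0.18 (adjusted p = 0.0543) and -0.23 ± 0.22 (adjusted p = 0.789). *Fzd5* had 1036, 941 and 1395 counts in *Rreb1*-/- embryos 2 to 4 and 527, 871 and 889 in *Rreb1*+/+ embryos 2 to 4 (log2 fold change 0.58 ± 0.22, adjusted p = 0.175). *Fzd9*, at 14.9 counts per kb, had a log2 fold change of -0.11 ± 0.22 over all embryos.

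Both co-receptors were abundant. *Lrp5*, which regulates bone mass in mammals, had 3476, 5267, 3544, 3979 and 4301 normalized counts in *Rreb1*-/- embryos 2 to 6, against 4473, 5354, 6244, 4929 and 5222 in *Rreb1*+/+ embryos. *Rreb1*-/- embryo 3 lay among the wild types and the other mutants below all of them (log2 fold change -0.36 ± 0.12, adjusted p = 0.139). Without that embryo *Lrp5* was called lower (log2 fold change -0.45, adjusted p = 0.0384). *Lrp6*, whose loss is the more severe of the pair in mouse embryos, had 4563, 4555, 5039.7, 4740.3 and 4464 counts in *Rreb1*-/- embryos and 4884, 5264, 4580.1, 5624 and 4877 in *Rreb1*+/+ embryos. The interval of its log2 fold change was -0.25 to 0.03.

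The R-spondins differed in level, and their estimates were of both signs. *Rspo3*, which is needed for placental vessel growth, had 1061, 949.7, 835, 979.5 and 1329 normalized counts in *Rreb1*-/- embryos 2 to 6, against 1069, 1173, 997, 1054 and 1241 in *Rreb1*+/+ embryos, with overlap and an interval of -0.37 to 0.14 for the log2 fold change. *Rspo1*, a factor in ovary determination, had 47.7, 48.8, 62.7, 127 and 67.8 counts in *Rreb1*-/- embryos, against 97.9, 86.3, 87.8, 129 and 159 in *Rreb1*+/+ embryos. *Rreb1*-/- embryo 5 was within the wild-type range and the other mutants were below it. Its log2 fold change was -0.71 ± 0.28 over all embryos (adjusted p = 0.214), -0.77 ± 0.24 in replicates 2 to 4 (adjusted p = 0.107) and -0.62 ± 0.30 in replicates 5 and 6 (adjusted p = 0.526). *Rspo1* was called lower with the replicate set as a block (adjusted p = 0.0398) and without *Rreb1*-/- replicate 5 (adjusted p = 0.0458).

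*Rspo2*, which acts in limb and lung development, was the only member whose values did not overlap between the genotypes over all 10 embryos. It had 11.7, 9.4, 15.9, 18.6 and 16.7 normalized counts in *Rreb1*-/- embryos 2 to 6, against 3.8, 6.0, 5.7, 2.9 and 7.5 in *Rreb1*+/+ embryos, a mean of 14.4 ± 3.81 against 5.20 ± 1.85 (SD, n = 5 each). Its level was below the filter, so it was among the 6 untested members. In the fit without a filter its log2 fold change was 1.33 ± 0.31 (adjusted p = 0.0384). It was also called higher without *Rreb1*-/- replicate 3 (adjusted p = 0.0338). There it passed the filter only because its lowest mutant value (9.4) was left out, so this call is no separate support. Each of these values rests on fewer than 20 normalized counts. *Rspo4*, a factor in nail development, averaged 13.5 ± 4.93 counts in *Rreb1*-/- and 17.5 ± 4.90 in *Rreb1*+/+ embryos.

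Among the secreted modulators, *Sfrp1*, which binds WNT proteins outside the cell, had 2686, 2309, 3169.7, 1724 and 1669 normalized counts in *Rreb1*-/- embryos 2 to 6, against 2410.1, 2778, 2485, 1679 and 1536 in *Rreb1*+/+ embryos. The sets differed more than the genotypes (log2 fold change 0.08 ± 0.12 in replicates 2 to 4 and 0.08 ± 0.14 in replicates 5 and 6). *Dkk3*, a divergent member of the Dickkopf family that was chosen here after its values were seen, had 197, 108 and 98.8 counts in *Rreb1*-/- embryos 2 to 4, against 186, 202 and 177 in *Rreb1*+/+ embryos 2 to 4. In embryos 5 and 6 it had 553 and 541 counts in *Rreb1*-/- and 356 and 313 in *Rreb1*+/+ embryos. Its log2 fold change was -0.55 ± 0.23 in the first set (adjusted p = 0.221) and 0.71 ± 0.28 in the second (adjusted p = 0.392), and the difference between the sets was not called (adjusted p = 0.521). *Sfrp2* had a log2 fold change of -0.21 ± 0.18 over all embryos.

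Of the nuclear effectors and target genes 0 were called in limma, edgeR or DESeq2 over all embryos, with *Axin2* and *Tcf7* lower at p under 0.05 before adjustment. *Axin2*, a scaffold of the complex that degrades β-catenin and itself induced by WNT, had 1695, 2895, 1888, 2479 and 2434 normalized counts in *Rreb1*-/- embryos 2 to 6, against 2589, 3246, 3053, 2563 and 2667 in *Rreb1*+/+ embryos. The mutants were lower on average but overlapped, with a log2 fold change of -0.33 ± 0.14 over all embryos (adjusted p = 0.242) and -0.49 ± 0.17 in replicates 2 to 4 (adjusted p = 0.148). *Tcf7* had 1799, 2188, 1654, 1707 and 1466 counts in *Rreb1*-/- embryos and 2099, 2278, 2158, 1904 and 1864 in *Rreb1*+/+ embryos (log2 fold change -0.23 ± 0.10, adjusted p = 0.26). *Nkd1*, a feedback inhibitor that binds Dishevelled, was on the other side of 0. It had 1353, 2462, 1347, 1416 and 1761 counts in *Rreb1*-/- embryos and 1198, 1579, 1627, 957 and 1300.0 in *Rreb1*+/+ embryos (log2 fold change 0.31 ± 0.19, adjusted p = 0.43). Intervals of the log2 fold change over all embryos were -0.33 to 0.17 for *Lef1* and -0.22 to 0.61 for *Sp5*, a zinc-finger gene and direct WNT target. Of these 5 genes, 3 had estimates below 0 and 2 above.

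Promoters of the called members are shown because their genes fell together in replicates 2 to 4, and that of *Sp5* because it holds a match to the motif bound by TCF and LEF factors. RefSeq windows (GRCm38.p6), from 250 bases before to 50 after a start site, were matched for 27 members (34 windows). No window was used for *Wnt8a*. The motif was searched as CTTTGAT and CTTTGAA, which share their first 6 letters, and on the other strand as ATCAAAG and TTCAAAG. Matches are in capitals. All 3 windows lie on the plus strand.
*Fzd10*, chr5:128600856-128601155: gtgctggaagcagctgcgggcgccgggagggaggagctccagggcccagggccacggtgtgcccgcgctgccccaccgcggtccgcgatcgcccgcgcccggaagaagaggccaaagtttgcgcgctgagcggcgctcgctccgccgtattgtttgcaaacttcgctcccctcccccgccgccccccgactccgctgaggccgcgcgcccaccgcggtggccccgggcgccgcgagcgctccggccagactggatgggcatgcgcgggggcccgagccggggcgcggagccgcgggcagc
*Wnt4*, chr4:137277385-137277684: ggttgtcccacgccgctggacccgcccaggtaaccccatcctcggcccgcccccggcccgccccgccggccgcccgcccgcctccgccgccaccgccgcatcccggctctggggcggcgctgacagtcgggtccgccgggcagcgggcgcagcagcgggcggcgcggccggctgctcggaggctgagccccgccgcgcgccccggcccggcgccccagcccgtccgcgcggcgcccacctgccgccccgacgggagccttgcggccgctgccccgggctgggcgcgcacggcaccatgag
*Sp5*, chr2:70474673-70474972: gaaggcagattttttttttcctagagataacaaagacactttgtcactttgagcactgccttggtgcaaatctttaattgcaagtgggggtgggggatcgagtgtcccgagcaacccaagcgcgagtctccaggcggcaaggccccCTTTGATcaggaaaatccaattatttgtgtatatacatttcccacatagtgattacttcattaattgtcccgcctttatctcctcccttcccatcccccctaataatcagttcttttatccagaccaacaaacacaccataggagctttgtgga
The match in *Sp5* begins 104 bases before the start site. The other member windows with a match were those of *Wnt11*, where ATCAAAG begins 51 bases before the start, and *Wnt5b*, where CTTTGAT begins 71 bases before it. These 3 are 8.82% of the member windows, and 8.65% of all 32851 windows (2842) held a match. The windows of *Fzd10*, *Wnt4*, *Axin2*, *Lef1*, *Tcf7* and *Nkd1* did not contain these letters.

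Some members are neighbours in the genome. *Wnt6* and *Wnt10a* are neighbours on chromosome 1, 6193 bases apart (GENCODE M21, GRCm38), and so are *Wnt10b* and *Wnt1* on chromosome 15, 11706 bases apart. The *Rreb1*-/- mean of *Wnt6* was 422 ± 126 normalized counts, against a *Rreb1*+/+ mean of 367 ± 80.0 (SD, n = 5 each), whereas *Wnt10a* averaged 5.90 ± 1.78 in *Rreb1*-/- and 7.11 ± 3.16 in *Rreb1*+/+ embryos. Exons of 9 members, among them *Axin2*, *Rspo3*, *Fzd6* and *Lef1*, overlap an annotated gene on the opposite strand, and the strand setting of the counting is not given in the sources used here, so reads of those pairs may not be separate.

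Whether the genotype difference itself changed between the sets was tested by an interaction. No member passed in limma, where 0.0449% of all genes did, with 4 members at p under 0.05 before adjustment, 0 called by edgeR and 0 by DESeq2. Of all 15603 genes, 555 had a positive and 279 a negative interaction at p under 0.05 before adjustment. The interaction of *Fzd10* was 1.14 ± 0.39 on the log2 scale (adjusted p = 0.686), that of *Wnt8a* 1.31 ± 0.45 (adjusted p = 0.692) and that of *Wnt4* 0.86 ± 0.40 (adjusted p = 0.946). The calls in replicates 2 to 4 are therefore not shown to differ from replicates 5 and 6.

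Several members differed between the sets in both genotypes. All 4 embryos of replicates 5 and 6 were above all 6 of replicates 2 to 4 for 7 members (*Dkk3*, *Wnt1*, *Wnt4*, *Wnt5a*, *Wnt8a*, *Wnt9a* and *Wnt9b*), of which 6 were tested, against 5.37% of all genes tested. They were below them for 3 members (*Fzd6*, *Sfrp1* and *Wnt2b*), against 3.29% of all genes. *Wnt2b*, a ligand closely related to *Wnt2*, had 244 and 162 normalized counts in *Rreb1*-/- embryos 5 and 6 and 255 and 190.3 in *Rreb1*+/+ embryos 5 and 6. Its counts in embryos 2 to 4 were 526, 908 and 708 in *Rreb1*-/- and 506, 608 and 500.3 in *Rreb1*+/+ embryos. *Wnt5a*, needed for the elongation of the body axis, had 1671 and 1661 counts in *Rreb1*-/- and 1561 and 1552 in *Rreb1*+/+ embryos 5 and 6, against 1158, 1376 and 1009.8 in *Rreb1*-/- and 1058, 1051 and 1019 in *Rreb1*+/+ embryos 2 to 4. What separates the sets is not stated in the labels, and no test was made of it.

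Marker genes of cell types also differed between the genotypes in replicates 2 to 4, where 5 of 50 tested markers rose and 10 fell. Over all genes 3.16% rose and 2.52% fell in that set. In replicates 5 and 6 *En1* rose and *Hbb-bh1* and *Hba-x* fell, although no member was called there. Over all 10 embryos *En1* rose and *Afp* fell (limma adjusted p = 0.0157 for *Afp*). Summed over 7 markers of primitive streak and nascent mesoderm, *Rreb1*-/- embryos 2 to 4 had 8013 to 9623 normalized counts, against 3442 to 4503 in *Rreb1*+/+ embryos 2 to 4. *Eomes* and *Lhx1*, regulators of early mesendoderm, made up most of the mutant sum and rose in this set (log2 fold changes 1.57 ± 0.12 and 1.92 ± 0.23, adjusted p = 0.000173 and 0.00143), whereas *Tbx6* fell. The 5 blood markers, among them the embryonic globin *Hbb-bh1*, summed to 349 to 449 counts in *Rreb1*-/- embryos 2 to 4, against 1052 to 1599 in *Rreb1*+/+ embryos 2 to 4, and the alpha-like globin *Hba-x* was at 0 in those 3 mutants. In replicates 5 and 6 the streak sums were 1853 to 2274 in *Rreb1*-/- and 2004 to 2189 in *Rreb1*+/+ embryos, and the blood sums 2635 to 2938 in *Rreb1*-/- and 7972 to 12223 in *Rreb1*+/+ embryos. The 6 visceral endoderm markers, among them *Cubn*, *Afp* and *Ttr*, summed to 112943 to 133149.5 counts in *Rreb1*-/- embryos 2 to 4. *Rreb1*+/+ embryos 2 to 4 had 152695 to 154373, without overlap. *Cubn* made up most of these sums, yet its own values overlapped (log2 fold change -0.15 ± 0.13, adjusted p = 0.563). Of the 6 only *Afp* was called in this set, and it fell (log2 fold change -1.75 ± 0.19, adjusted p = 0.000924). In replicates 5 and 6 these sums overlapped, at 110045 to 156942 in *Rreb1*-/- and 145671 to 161260.0 in *Rreb1*+/+ embryos. The 5 epiblast markers summed to 11108 to 16268 counts in *Rreb1*-/- and 9199 to 14929 in *Rreb1*+/+ embryos 2 to 4, and of them the growth factor gene *Fgf5* rose (log2 fold change 1.95 ± 0.31, adjusted p = 0.00568). The 5 markers of extraembryonic and lateral mesoderm summed to 4698 to 7688 counts in *Rreb1*-/- and 6728 to 7444 in *Rreb1*+/+ embryos 2 to 4, and *Tbx4* (log2 fold change -2.31 ± 0.54, adjusted p = 0.0339) and *Postn* (-1.93 ± 0.48, adjusted p = 0.0426) fell. The other markers called in that set were *En1* and *Pgr*, which rose, and *Sox1*, *Pax6*, *Shh*, *Hbb-bh1*, *Gata1* and *Klf1*, which fell. The 5 extraembryonic ectoderm markers summed to 18696 to 22216 counts in *Rreb1*-/- embryos 2 to 4, against 14062 to 19408 in *Rreb1*+/+ embryos 2 to 4. The 4 markers listed for parietal endoderm, which had been dissected away, summed to 21749 to 42396 counts in *Rreb1*-/- and 20167 to 25024 in *Rreb1*+/+ embryos, with the highest sums in *Rreb1*-/- embryos 2 and 6. Whether these counts came from parietal endoderm was not tested. The part of these cell types in the lower *Fzd10*, *Wnt8a* and *Wnt4* was not tested.

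**Figure D4:**
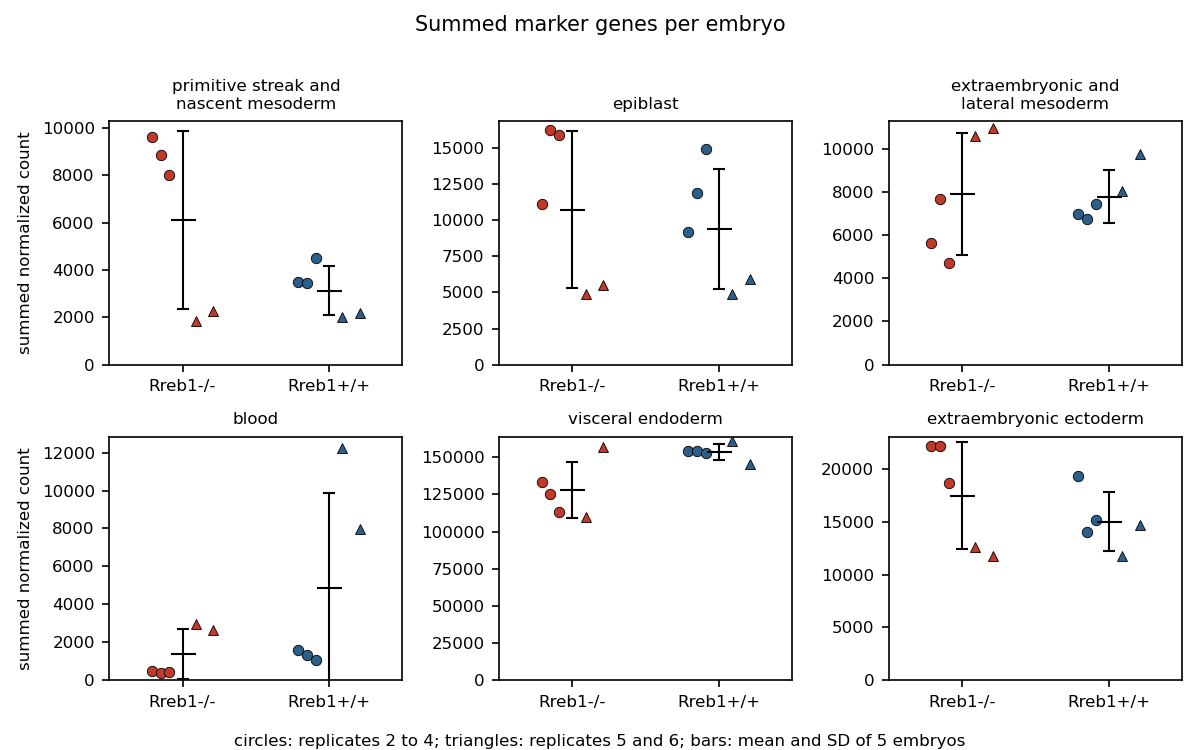
Summed normalized count of marker genes per embryo for 6 tissues, in *Rreb1*-/- (left) and *Rreb1*+/+ (right) embryos, with replicates 2 to 4 as circles, replicates 5 and 6 as triangles, and the mean and SD of 5 embryos as bars. *Rreb1*-/- embryos 2 to 4 have the highest streak sums and the lowest blood sums.

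Other genes of the pathway (63, of which 57 were tested) had a median log2 fold change of -0.11 over all embryos, 40 being below 0, against -0.02 over all genes. Only *Apc2*, a homologue of the tumour suppressor *Apc*, was called higher in *Rreb1*-/- embryos, and 0 were lower in limma (8 before adjustment at p under 0.05, while edgeR called 0 and DESeq2 called 2). *Apc2* had 75.2, 163, 137, 269 and 264 normalized counts in *Rreb1*-/- embryos 2 to 6, against 42.2, 70.3, 55.4, 48.0 and 80.1 in *Rreb1*+/+ embryos. *Rreb1*-/- embryo 2 lay within the wild-type range and the other mutants above it (log2 fold change 1.50 ± 0.34, adjusted p = 0.0292). The call was lost without *Rreb1*-/- replicate 3, 4, 5 or 6, without *Rreb1*+/+ replicate 2, 3, 4 or 5, and with Y-linked expression as a covariate. In these fits 0 genes were higher, except without *Rreb1*-/- replicate 6, where *Lgr5* was (adjusted p = 0.04). With the replicate number as a block 4 genes were higher (*Apc2*, *Dkk1*, *Lgr5* and *Sfrp5*).

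Within replicates 2 to 4, 4 of the 57 rose and 7 fell in the mutants, where 3.16% of all genes rose and 2.52% fell. The extracellular inhibitor *Sfrp5* had 151, 127 and 159 normalized counts in *Rreb1*-/- embryos 2 to 4, against 23.0, 16.1 and 32.5 in *Rreb1*+/+ embryos 2 to 4 (log2 fold change 2.61 ± 0.24, adjusted p = 0.000416). *Cer1*, an inhibitor of Nodal, BMP and WNT made by anterior visceral endoderm, had 3146, 2687 and 2714 counts in *Rreb1*-/- and 1311, 1457 and 1821 in *Rreb1*+/+ embryos 2 to 4 (log2 fold change 0.91 ± 0.13, adjusted p = 0.0034). *Lgr5*, a receptor of R-spondins, had 632, 528 and 723 counts in *Rreb1*-/- and 321, 360.4 and 364 in *Rreb1*+/+ embryos 2 to 4 (log2 fold change 0.84 ± 0.13, adjusted p = 0.0057). The other gene that rose was the co-receptor antagonist *Dkk1*, so that 3 of the 11 tested inhibitors rose, and 1 (*Notum*) fell. In replicates 5 and 6 both mutants lay above both wild types for *Sfrp5*, *Lgr5* and *Dkk1*, but below them for *Cer1*. Limma called none of these there. In that set, with 2 embryos per genotype, 9 of the 57 genes lay wholly above and 11 wholly below their wild types. Over all 10 embryos 2 of the 57 were without overlap on the higher side (*Lgr5* and the receptor kinase *Ryk*) and 1 on the lower side (the scaffold *Axin1*), where 4.24% of all genes were so on the higher side and 2.46% on the lower, so the list did not exceed the background.

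The 7 genes that fell in replicates 2 to 4 included 5 of the 10 further target genes on the list. These were *Cdx1*, *Cdx2*, *Msgn1*, *Sp8* and *Tbx6*, all transcription factors, and 0 of the 10 rose. *Lgr5*, which rose, and *Rnf43*, which fell, are target genes as well, but were counted with the R-spondin receptors and ligases. The member target genes *Axin2* (log2 fold change -0.49), *Nkd1* (0.18) and *Sp5* (0.35) were not called in the main fit of this set. *Cdx1*, a regulator of posterior identity and WNT target, had 59.3, 99.8 and 54.2 normalized counts in *Rreb1*-/- embryos 2 to 4, against 601, 243 and 203 in *Rreb1*+/+ embryos 2 to 4 (log2 fold change -2.16 ± 0.36, adjusted p = 0.0074). Its relative *Cdx2* had 1371, 1699 and 998 counts in *Rreb1*-/- and 2552, 2049 and 2146 in *Rreb1*+/+ embryos 2 to 4 (log2 fold change -0.76 ± 0.17, adjusted p = 0.0265). *Tbx6*, a T-box factor of paraxial mesoderm that is also among the streak markers, had 195, 487 and 323 counts in *Rreb1*-/- and 639.9, 696 and 921 in *Rreb1*+/+ embryos 2 to 4 (log2 fold change -1.24 ± 0.29, adjusted p = 0.036). *Rnf43*, the ligase that removes Frizzleds, had 47.7, 55.1 and 46.7 counts in *Rreb1*-/- and 107, 109 and 98.3 in *Rreb1*+/+ embryos 2 to 4 (log2 fold change -1.06 ± 0.18, adjusted p = 0.00709). *Sp8*, a relative of *Sp5*, had 421, 589 and 541 counts in *Rreb1*-/- and 782, 755 and 837 in *Rreb1*+/+ embryos 2 to 4 (log2 fold change -0.63 ± 0.14, adjusted p = 0.0278). *Msgn1* acts in presomitic mesoderm, and *Notum* is an enzyme that inactivates WNT proteins. In replicates 5 and 6 both mutants were again below both wild types for *Cdx1*, *Cdx2* and *Sp8*, without a call. The genotypes overlapped there for *Msgn1*, *Notum*, *Rnf43* and *Tbx6*.

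The number lower in replicates 2 to 4 was 10 without *Rreb1*-/- embryo 3, which added *Bcl9l*, *Ccnd1* and *Ptk7*, 9 with no filter and 8 by DESeq2. It was 2 (*Cdx1* and *Rnf43*) when *Rreb1*-/- embryo 2, *Rreb1*+/+ embryo 3 or *Rreb1*+/+ embryo 4 was left out. It was 4 when any of *Rreb1*-/- embryos 4 and 5 and *Rreb1*+/+ embryos 2 and 5 was left out, and 5 without *Rreb1*-/- embryo 6 or *Rreb1*+/+ embryo 6, and by edgeR. With the replicate block it was 6, *Notum* losing its call, and among the higher genes *Dkk1* lost its call and *Apc2* gained one. *Cer1*, *Lgr5*, *Sfrp5*, *Cdx1* and *Rnf43* kept their calls in every fit run for that set. In replicates 5 and 6 *Apc2* alone was called in limma (269 and 264 counts in *Rreb1*-/- and 48.0 and 80.1 in *Rreb1*+/+ embryos, adjusted p = 0.03). This limma call was lost without any of those 4 embryos. DESeq2 also called *Sfrp5* higher in that set (log2 fold change 0.95, adjusted p = 0.00514). No interaction was called in limma over these genes (7 before adjustment at p under 0.05, 0 in edgeR, and *Cer1* and *Sfrp5* in DESeq2).

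**Figure D5:**
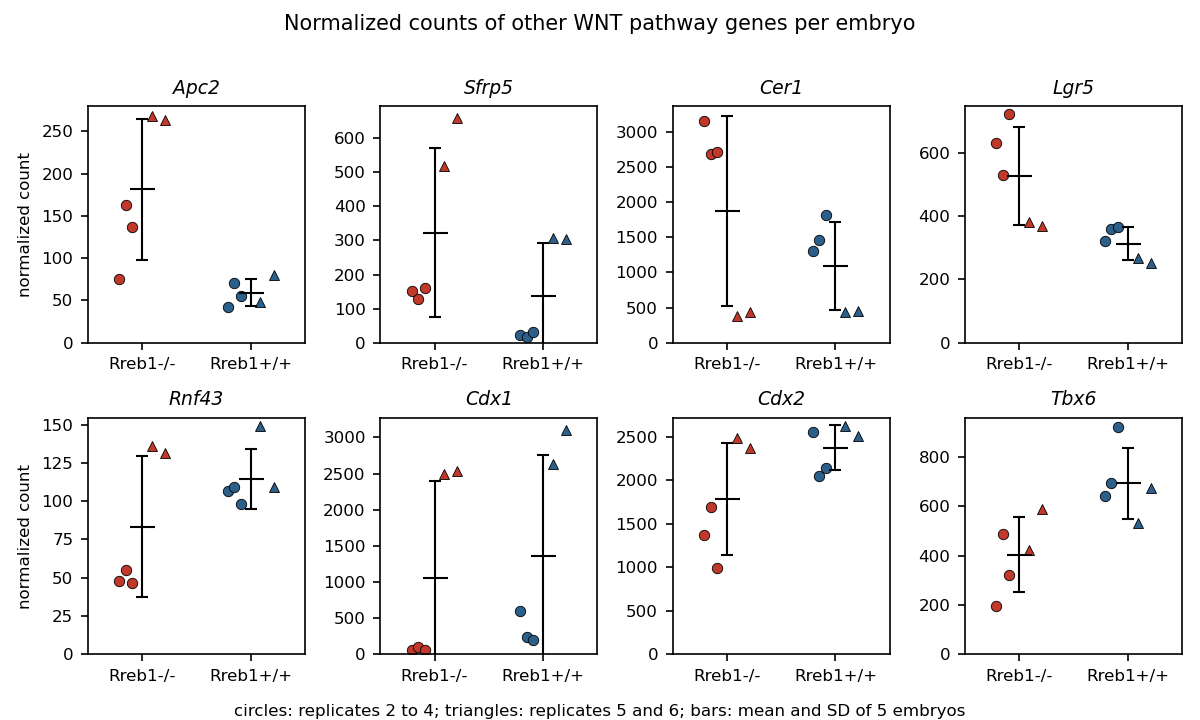
Normalized count per embryo of 8 other WNT pathway genes in *Rreb1*-/- (left) and *Rreb1*+/+ (right) embryos, with replicates 2 to 4 as circles, replicates 5 and 6 as triangles, and the mean and SD of 5 embryos as bars. In replicates 2 to 4 *Sfrp5*, *Cer1* and *Lgr5* are higher and *Rnf43*, *Cdx1*, *Cdx2* and *Tbx6* lower in the mutants, with no overlap of the circles.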

How the data were processed

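RNA-sequencing of 10 single E7.5 embryos was analysed (5 *Rreb1*-/- and 5 *Rreb1*+/+). Poly(A) RNA libraries were sequenced, and the authors aligned reads with STAR, obtained gene counts with HTSeq and scaled them with DESeq. The deposited signal is thus the gene's reads over a library size factor. The sources used here do not give the genome build, gene models or strand setting. When a column was divided by its smallest step, 100% of its values came out as whole reads (tolerance 0.1 read). These recovered reads served for depth, edgeR 4.0.16 and DESeq2 1.42.0 only.

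The 15603 genes whose mean reached 15 in either genotype were tested with limma 3.58.1 (R 4.3.3) on log2(normalized count + 1), which understates the change of low genes, with Benjamini-Hochberg adjustment over all genes at 0.05. Tests within replicates 2 to 4 and 5 and 6, and their interaction, used a model of genotype by set. Exon lengths and positions came from GENCODE M21 (GRCm38) by gene identifier. Scripts were tested on simulated data.

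Alternatives were edgeR, DESeq2, TMM factors, pseudocounts of 0.5 and 5, no filter, a mean of at least 50, blocks for replicate number or set, a Y-linked covariate, and leaving out each embryo. Deviations of same-numbered embryos from their genotype means correlated at 0.253 to 0.459 (5 pairs). The replicate number was used as a block in an alternative fit only. A pairing of same-numbered embryos is not established, since no label states that they share a litter. These deviations also carry the difference between the replicate sets, and the same-numbered wild type was the closest match for 1 of the 5 mutants.

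Values per embryo are given for members that were called, that did not overlap, or that lead their role group, then by unadjusted p up to 20. Other pathway genes are named where called, at most 8 by p in a comparison. The members, lists and comparisons were chosen with earlier results of these data known.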

Additional observations from a re-analysis of the deposited data

Results flagged for a closer look

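A single embryo stood far from the other 4 of its genotype in 2 of the 40 groups examined (20 members in each genotype), and chance gives about 1 in 20. *Rspo1* was highest in *Rreb1*-/- embryo 5, at 127.3 normalized counts, where the other mutants had 47.7 to 67.8. *Wnt16* was highest in *Rreb1*+/+ embryo 6, at 16.0 normalized counts, where the other wild types had 5.7 to 8.6. No difference of the genotype effect between the replicate sets passed its test for a member.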

How the results depend on the processing

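The median log2 fold change of the members lay between -0.12 and 0.03 when single embryos were left out. Members higher over all embryos numbered 0, and 1 (*Rspo2*) with no filter. Leaving out single embryos gave 0 to 1 higher and 0 to 1 lower, and the replicate set as a block gave 2 lower. In replicates 2 to 4 the members lower numbered 3, then 5 by DESeq2, 6 with the replicate block, and 1 to 6 when single embryos were left out. Those higher numbered 0, then 1 by DESeq2, 1 with the replicate block, and 0 to 1 when single embryos were left out. Other pathway genes higher over all embryos numbered 1, then 3 by DESeq2, 4 with the replicate block, 4 with the replicate set as a block, 0 with the Y-linked covariate, and 0 to 1 when single embryos were left out. Those lower numbered 0, then 2 by DESeq2, 1 with no filter (*Kremen2*), 1 with the replicate set as a block (*Sp8*), 2 with the Y-linked covariate (*Celsr2* and *Tbx6*), and 0 to 1 when single embryos were left out. With the replicate block 716 of all genes were higher and 356 lower over all embryos (486 and 179 without it), 2 interactions were called over all genes (7 without it), and before adjustment 4 members were higher and 10 lower over all embryos, 15 other pathway genes were lower, and 10 members had an interaction (1, 5, 8 and 4 without it, in this order). It changed no other call of a member. The causes of these changes were not tested. With 2 embryos per genotype in replicates 5 and 6 and 3 in replicates 2 to 4, smaller differences were not detectable.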
